A study of Mus musculus with 9 samples.

Results

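The 10 genes described here code for proteins that sense, signal and repair breaks in DNA: Atm, Atr, Topbp1, Mdc1, Trp53bp1, Rnf8, Rnf168, Brca1, Brca2 and Parp1. They were taken by name, as a list drawn up with earlier results of these data known, and each had 1 row among the 55414 genes of the expression table. All 10 were among the 25128 genes tested, which had at least 10 counts summed over the 9 libraries. The libraries were made from round spermatids (RS), the haploid germ cells that follow meiosis. The RS were labelled WT, and according to the methods germ cells came from males in which Stra8-iCre, a Cre recombinase active from the spermatogonial stage, switched on a fluorescent reporter on a C57Bl/6 background. The methods sorted germ cell populations by tdTomato intensity and forward scatter. In culture, RS received for 24 h either vehicle, oxamate at 24 mM, or oxamate at 24 mM together with octyl-L2HG at 0.3 mM (written octyl-L-2HG from here on), and DMSO at 0.15% was present in all groups. Oxamate inhibits lactate dehydrogenase, the enzyme that in these cells makes L-2-hydroxyglutarate (L-2HG), and octyl-L-2HG is an ester form of L-2HG that enters cells. The comparisons ask whether blocking the enzyme changed the RNA of these genes and whether adding L-2HG back changed it again. Vehicle libraries are numbered 1 to 3, oxamate libraries 4 to 6, and libraries with both compounds 7 to 9. No RNA library with octyl-L-2HG alone was analysed here, so its effect without oxamate was not measured. The methods used prepubertal and adult mice, and which of these gave the libraries is not stated in the labels or methods used here. Nor do these say whether the libraries of a group came from separate animals or cultures, so p-values measure only the spread between these libraries.

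A double-strand break in DNA is sensed by the kinase ATM, and single-stranded DNA at stalled forks, resected breaks and unpaired meiotic chromosomes by the kinase ATR, which TOPBP1 activates. The kinases phosphorylate the histone variant H2AX, MDC1 binds that mark, and the ubiquitin ligases RNF8 and RNF168 then modify the surrounding histones, to which 53BP1 (the product of Trp53bp1) and BRCA1 are recruited. 53BP1 favours the joining of ends and BRCA1 and BRCA2 favour homologous recombination, while PARP1 binds breaks in one or both strands and marks them with poly(ADP-ribose). In male meiosis several of these proteins work on the unpaired sex chromosomes, and in later spermatids DNA breaks accompany the exchange of histones for protamines.

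Libraries held between 32339533 and 39888396 counted reads. Pairs of libraries of 1 group differed by more than sampling noise, and the chi-square of their counts divided by its degrees of freedom ran from 2.1 to 23.3. On the first 2 principal components, which held 49.3% and 19.9% of the variance, oxamate library 4 lay apart from oxamate libraries 5 and 6. It scored 0.99 against -7.29 and -5.67 on the first and 2.91 against -12.2 and -14.5 on the second. Vehicle library 1 lay apart on the second, at 14.01 against 4.37 and 1.03 for vehicle libraries 2 and 3. Round spermatid markers (12 genes) summed to between 2642 and 2760 CPM (counts scaled to the library total) in all 9 libraries, although 3 of them were raised and 4 lowered with both compounds against vehicle. The lowered genes included those for the late nuclear proteins Prm1, with group means of 4915, 3591 and 2919 normalized counts for vehicle, oxamate and both compounds, and Tnp1, with 6912, 5738 and 4769. Spermatocyte markers (16 genes) summed to 1038 to 1097 CPM with vehicle, 1016 to 1048 with oxamate and 1071 to 1120 with both compounds. Of these, 0 were called with oxamate against vehicle. With octyl-L-2HG against oxamate 2 were raised and 2 lowered, beside 11.2% of all genes called, and with both compounds against vehicle 1 was raised and 1 lowered. Whether this RNA was left over in RS or came from spermatocytes was not tested. Spermatogonium markers (10 genes) summed to between 7.99 and 9.19 CPM and Leydig cell markers (6 genes) to no more than 1.11. The macrophage sum (8 genes) was 4.99 to 5.51 with vehicle, 3.95 to 4.31 with oxamate and 3.67 to 4.19 with both compounds. The Sertoli cell sum (10 genes, of which 5 had too few counts to be tested) was 86.0 to 104 with vehicle, 100.6 to 123 with oxamate and 120 to 130 with both compounds. The peritubular myoid sum (6 genes) was 167 to 169, 159 to 170 and 132 to 138 in the same order. Most of these last 2 sums came from 1 gene each, Tjp1 and Actg2, while the defining Sertoli genes Sox9, Wt1 and Amh had 1.21, 1.41 and 1.18 normalized counts on average. The part of these shifts in the results below was not tested. Fewer RNA molecules per cell and fewer cells that hold them cannot be told apart in such bulk libraries.

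Levels between genes were compared as RPKM, the reads per kilobase of the longest annotated transcript scaled to the library total. In the vehicle libraries Mdc1 had the highest level, at 27.6 ± 1.2 RPKM (SD, n = 3), and was above Atr at 20.1 ± 1.7, Parp1 at 14.9 ± 0.81 and Trp53bp1 at 7.74 ± 0.41, with no overlap between neighbours in this order. Rnf168 at 4.84 ± 0.69 RPKM and Brca2 at 4.32 ± 0.21 overlapped, as did Topbp1 at 2.1 ± 0.10 and Brca1 at 1.89 ± 0.38. Atm at 0.218 ± 0.039 RPKM and Rnf8 at 0.205 ± 0.0074 were lowest and overlapped. By this measure the 2 kinases of the group stood far apart in RNA level, Atr 91.9-fold above Atm in mean RPKM. So did the 2 ubiquitin ligases, Rnf168 23.7-fold above Rnf8. Reads were counted per gene, however, and all exons of Atr hold 23629 bases against 8102 in its longest transcript. For Parp1 these lengths are 5293 and 3873, for Rnf8 11703 and 5404, and for Atm 10338 and 9819. The ratios and the order of genes thus depend on the length used, and levels per exonic base were not computed. Neighbours in this order could change places between groups: Topbp1 was at 1.80 RPKM and Brca1 at 2.28 with oxamate, and Rnf168 was at 3.50 and Brca2 at 4.21 with both compounds.

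**Figure D1:**
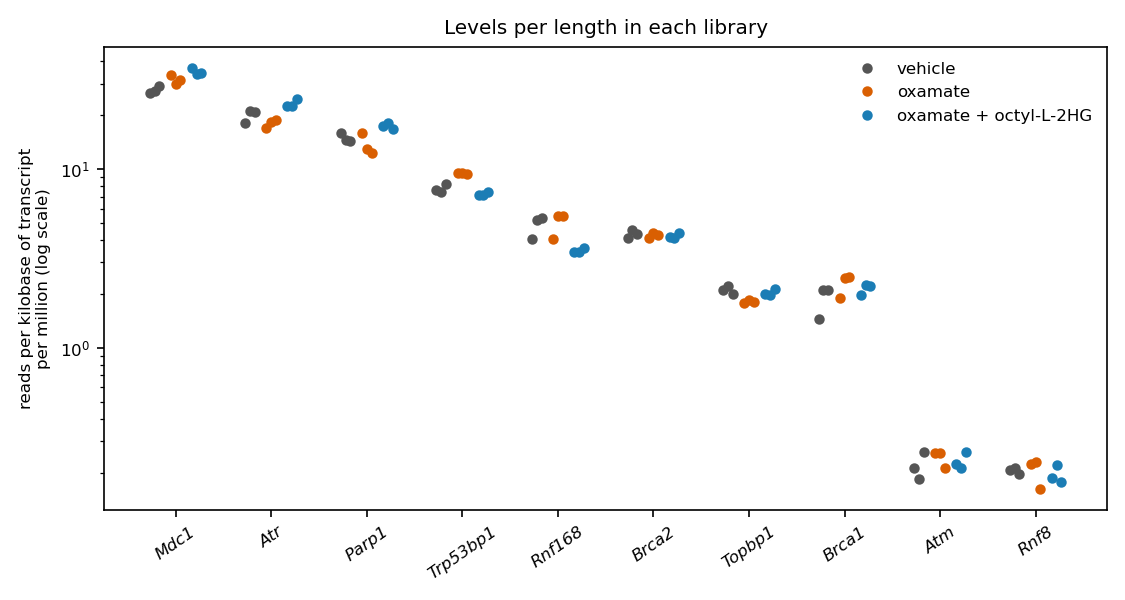
RPKM (vertical log axis) of the 10 genes in each of the 9 libraries, coloured by group and ordered by the vehicle mean. Mdc1, Atr and Parp1 lie above 10 in all groups, and Atm and Rnf8 below 0.3.

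Promoter sequences are shown for the 4 genes that changed when octyl-L-2HG was added to oxamate, Trp53bp1 and Rnf168, which fell, and Atr and Parp1, which rose, so that these pairs can be set side by side. Each is the 250 bases before the transcription start from RefSeq (GRCm38.p6), at chr2:121271408-121271657 on the minus strand for Trp53bp1, chr16:32277211-32277460 on the plus strand for Rnf168, chr9:95857347-95857596 on the plus strand for Atr and chr1:180568641-180568890 on the plus strand for Parp1. They read 5′ to 3′ on the gene's strand, and capitals mark matches to the motifs named after them.
Trp53bp1: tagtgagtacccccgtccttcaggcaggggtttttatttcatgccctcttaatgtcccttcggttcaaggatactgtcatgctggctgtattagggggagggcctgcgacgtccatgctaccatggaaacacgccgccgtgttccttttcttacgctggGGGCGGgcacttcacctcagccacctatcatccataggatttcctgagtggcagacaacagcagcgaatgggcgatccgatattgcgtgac
Rnf168: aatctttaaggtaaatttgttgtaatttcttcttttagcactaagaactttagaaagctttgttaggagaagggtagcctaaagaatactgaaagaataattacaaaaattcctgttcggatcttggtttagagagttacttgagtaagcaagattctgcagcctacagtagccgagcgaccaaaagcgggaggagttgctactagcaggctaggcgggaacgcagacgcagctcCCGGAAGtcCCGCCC
Atr: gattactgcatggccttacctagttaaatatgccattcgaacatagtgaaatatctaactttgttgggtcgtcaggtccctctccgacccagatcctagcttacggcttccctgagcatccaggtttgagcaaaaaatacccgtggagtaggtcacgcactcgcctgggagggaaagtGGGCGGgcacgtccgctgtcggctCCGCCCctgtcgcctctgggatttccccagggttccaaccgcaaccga
Parp1: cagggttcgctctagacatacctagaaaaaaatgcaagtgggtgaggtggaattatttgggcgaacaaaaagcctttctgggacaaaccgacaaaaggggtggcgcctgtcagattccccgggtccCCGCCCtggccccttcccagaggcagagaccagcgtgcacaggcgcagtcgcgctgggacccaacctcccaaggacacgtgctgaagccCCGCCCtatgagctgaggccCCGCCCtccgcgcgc
The motifs were searched on both strands as exact letters. The GC box GGGCGG, or its complement CCGCCC, occurred once in the Trp53bp1 and Rnf168 promoters, at 2 places in that of Atr and at 3 in that of Parp1. It was in 7 of the 10 promoters and in 32.7% of the 32851 promoters of the same length in the RefSeq table. The ETS core CCGGAAG was in the promoters of Rnf168 and Topbp1, 2 of 10, and in 6.91% of all promoters. The CCAAT box was in 4 of the 10 (Atm, Mdc1, Brca1 and Rnf8) and in 33.8% of all. The cyclic AMP response element TGACGTCA was in 1 of the 10, that of Brca2, and in 1.55% of all. Both the genes that rose and those that fell held a GC box.

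Oxamate alone raised 1 of the 10 genes, Trp53bp1, and lowered 0, at an adjusted p-value under 0.05 (quasi-likelihood test of edgeR, Benjamini-Hochberg over all genes tested). Among all genes tested, 5.19% were called in this comparison, 3.97% raised and 1.22% lowered. At an unadjusted p-value under 0.05 there were 5 of the 10, Trp53bp1, Mdc1 and Brca1 higher and Atr and Topbp1 lower, where 17.3% of all genes tested reached that level. DESeq2 also called 1. Adding octyl-L-2HG to oxamate raised Atr and Parp1 and lowered Trp53bp1 and Rnf168, 4 of 10 where 11.2% of all genes were called, 3.18% raised and 8.06% lowered. Against vehicle, both compounds together raised Atr and Mdc1 and lowered Rnf168, 3 of 10 where 18.0% of all genes were called, 7.48% raised and 10.6% lowered. In the test for any difference among the 3 groups, 5 of the 10 were called, against 19.8% of all genes. These shares include many genes with few counts, whereas 8 of the 10 averaged 100 normalized counts or more. In a fit of the 10715 genes at that level, calls were more frequent: 1126, 2382 and 3284 in the 3 comparisons and 3666 for any difference. Of the 8 genes in that fit, 1, 4 and 2 were called in the 3 comparisons and 5 for any difference. The 10 genes did not move one way: their median log2 fold change was 0.03, -0.03 and 0.03 in the 3 comparisons, against -0.01, -0.04 and -0.05 over all genes tested. The 2 comparisons with oxamate share the oxamate libraries, and those with vehicle share the vehicle libraries.

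**Figure D2:**
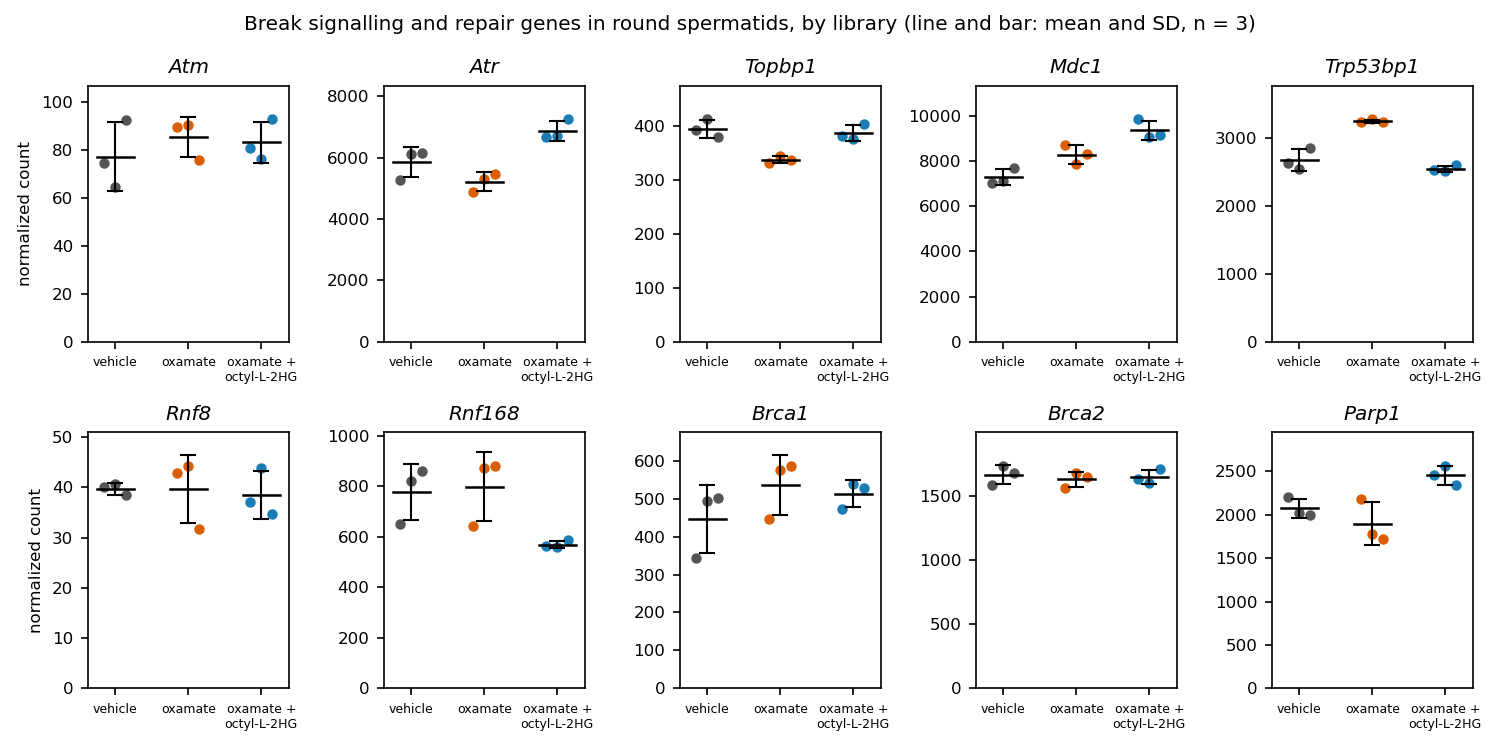
Normalized counts (reads per gene divided by the library's DESeq2 size factor, vertical axis from 0) of the 10 genes in each library by group. Points are libraries, lines the means and bars the SD (n = 3). Trp53bp1 is high in all 3 oxamate libraries, and Rnf168 is low in all 3 libraries with both compounds.

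Trp53bp1, the end-joining mediator, was the only one of the 10 genes called with oxamate, and octyl-L-2HG moved it in the opposite direction. Its normalized counts were 2637, 2543 and 2855 in vehicle libraries 1 to 3, 3228, 3274 and 3237 in oxamate libraries 4 to 6, and 2522, 2518 and 2601 in libraries 7 to 9 with both compounds. The oxamate libraries lay above all other 6 and within a narrow band, with a coefficient of variation of 0.76%, while the libraries with both compounds lay within or just under the vehicle range. Oxamate raised it by 0.28 on the log2 scale (SE 0.065, adjusted p = 0.0113, edgeR's quasi-likelihood test), a 1.22-fold rise, and octyl-L-2HG with oxamate lowered it from the oxamate level, with a log2 fold change of -0.38 (SE 0.066, adjusted p = 0.000691). Both values rest on the same oxamate libraries. Against vehicle, libraries with both compounds differed by -0.09 (SE 0.066, adjusted p = 0.371). The rise with oxamate missed the threshold without vehicle library 2 (0.25, adjusted p = 0.0802) and without oxamate library 5 (0.28, adjusted p = 0.0515, edgeR), whereas the fall was called in all 18 alternative fits, with values between -0.42 and -0.33. With offsets for transcript length and GC content, described below, the rise was 0.18 (adjusted p = 0.039) and the difference between both compounds and vehicle was called at -0.22 (adjusted p = 0.00423, edgeR). In another annotation (GENCODE, GRCm38), 15.0% of the exonic bases of Trp53bp1 are shared with Tubgcp4, a tubulin complex gene on the opposite strand. The libraries were stranded but the strand setting of the counting is not given, so a share of reads could belong to either gene. Tubgcp4, named here for this overlap, differed by -0.05 (adjusted p = 0.797) with oxamate and rose by 0.27 (adjusted p = 0.0106, edgeR) with octyl-L-2HG. How far shared reads entered the counts of either gene was not tested.

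Rnf168, the ubiquitin ligase that amplifies the histone mark to which 53BP1 binds, was lowest with both compounds. The Rnf168 libraries held 649.5, 819.8 and 859.9 with vehicle, 641.1, 872.0 and 880.3 with oxamate, and 562.6, 559.1 and 585.1 with both compounds, in normalized counts. All 3 libraries with both compounds lay under the other 6, but vehicle library 1 and oxamate library 4 lay much nearer to them than the remaining libraries of their groups. Octyl-L-2HG with oxamate lowered Rnf168 from the oxamate level with a log2 fold change of -0.51 (SE 0.11, adjusted p = 0.00458) and from the vehicle level with one of -0.47 (SE 0.11, adjusted p = 0.00473, edgeR's quasi-likelihood test). Oxamate alone differed from vehicle by 0.04 (SE 0.11, adjusted p = 0.897), and this value fell to -0.07 without vehicle library 1 and rose to 0.17 without oxamate library 4. The fall from the oxamate level was called in all 18 alternatives, between -0.64 and -0.44. The fall from the vehicle level missed the threshold in 1, without vehicle library 3 (-0.38, adjusted p = 0.0561, edgeR). Rnf8, the ligase that acts before Rnf168, had between 31.8 and 44.3 normalized counts in the 9 libraries, and its groups overlapped. Its log2 differences were 0.01, -0.09 and -0.07 with standard errors of 0.19 each, so that only a change well above these values could have been called at this depth. In the same annotation, 13.2% of its exonic bases are shared with Gm28043, a gene on the same strand.

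Atr, the kinase of single-stranded DNA, rose with octyl-L-2HG. Its normalized counts were 5284, 6127 and 6133 with vehicle, 4872, 5296 and 5464 with oxamate, and 6662, 6686 and 7242 with both compounds. The libraries with both compounds lay above all others, and the oxamate libraries lay below vehicle libraries 2 and 3 and on either side of vehicle library 1. Octyl-L-2HG with oxamate raised Atr from the oxamate level by 0.37 on the log2 scale (SE 0.072, adjusted p = 0.00176, edgeR's quasi-likelihood test), 1.29-fold, in all 18 alternatives (0.31 to 0.42). Oxamate alone differed from vehicle by -0.16 (SE 0.072, adjusted p = 0.238). The rise over vehicle, 0.21 (SE 0.072, adjusted p = 0.0464, edgeR), was just past the threshold and was lost in 9 of 18 alternatives, among them without vehicle library 1 (0.14, adjusted p = 0.219) and with length and GC offsets (0.09, adjusted p = 0.255). In the other annotation 3.07% of the exonic bases of Atr are shared with 1700065D16Rik on the opposite strand. That gene differed by -0.06 between both compounds and oxamate (adjusted p = 0.795) and was lower than vehicle with oxamate (-0.38, adjusted p = 0.0356) and with both compounds (-0.45, adjusted p = 0.0048, edgeR's quasi-likelihood test). Atm, the kinase of double-strand breaks, had between 64.5 and 92.7 normalized counts in the 9 libraries. Its groups overlapped and its log2 differences were 0.15, -0.06 and 0.09 with standard errors of 0.15 to 0.16. Topbp1, the activator of ATR, had 392.7, 412.3 and 379.1 normalized counts in vehicle libraries, 330.6, 344.6 and 337.6 with oxamate, and 381.8, 375.8 and 403.5 with both compounds. The oxamate libraries lay under the other 6, yet the difference from vehicle of -0.22 (SE 0.086, adjusted p = 0.165) and that between both compounds and oxamate of 0.17 (SE 0.087, adjusted p = 0.238, edgeR) missed the threshold. Groups that do not overlap were common in these data, at 21.3% of all genes for oxamate against vehicle, 28.8% for octyl-L-2HG against oxamate and 36.5% for both compounds against vehicle, where 3, 6 and 4 of the 10 genes were so placed.

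Parp1, the main poly(ADP-ribose) polymerase, also rose with octyl-L-2HG. Its normalized counts were 2200, 2018 and 2002 with vehicle, 2187, 1782 and 1726 with oxamate, and 2459, 2563 and 2343 with both compounds. The libraries with both compounds lay above the other 6, and oxamate library 4 lay near vehicle library 1 while oxamate libraries 5 and 6 lay below all vehicle libraries. Octyl-L-2HG with oxamate raised Parp1 from the oxamate level by 0.34 on the log2 scale (SE 0.084, adjusted p = 0.0102, edgeR's quasi-likelihood test), 1.27-fold. This call was lost without oxamate library 5 (adjusted p = 0.0722), oxamate library 6 (adjusted p = 0.0542) or library 8 with both compounds (adjusted p = 0.0707, edgeR), at values from 0.28 to 0.31. Oxamate alone differed from vehicle by -0.12 (SE 0.084, adjusted p = 0.505), and without oxamate library 4 the difference was called, at -0.24 (adjusted p = 0.0148, edgeR). Both compounds differed from vehicle by 0.22 (SE 0.084, adjusted p = 0.0718, edgeR), which passed the threshold in 5 of 18 alternatives.

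Mdc1, the reader of phosphorylated H2AX and the most abundant of the 10 transcripts per length, was higher in each group than in the one before it. Its normalized counts were 7020, 7139 and 7707 with vehicle, 8693, 7873 and 8298 with oxamate, and 9849, 9077 and 9166 with both compounds. No library of one group overlapped with those of another. The single steps, 0.19 with oxamate (SE 0.065, adjusted p = 0.104) and 0.15 with octyl-L-2HG on top of oxamate (SE 0.065, adjusted p = 0.156, edgeR's quasi-likelihood test), missed the threshold, while the difference between both compounds and vehicle was called at 0.34 (SE 0.065, adjusted p = 0.000736), 1.27-fold. That call was made in all 18 alternatives, between 0.21 and 0.39, the lowest with length and GC offsets.

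The recombination genes did not pass the threshold in any comparison. Brca1 had 343.8, 493.8 and 502.8 normalized counts in vehicle libraries, 445.8, 576.5 and 586.5 with oxamate, and 472.8, 539.5 and 528.0 with both compounds. One library in each of the first 2 groups, vehicle library 1 and oxamate library 4, lay well under the others, and the groups overlapped. The difference with oxamate was 0.27 (SE 0.12, adjusted p = 0.26), and without oxamate library 4 it was called at 0.38 (adjusted p = 0.0301, edgeR's quasi-likelihood test). Brca2 had between 1562 and 1732 normalized counts in all 9 libraries, and its log2 differences were -0.03, -0.01 and -0.03 with standard errors of 0.07 each.

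**Figure D3:**
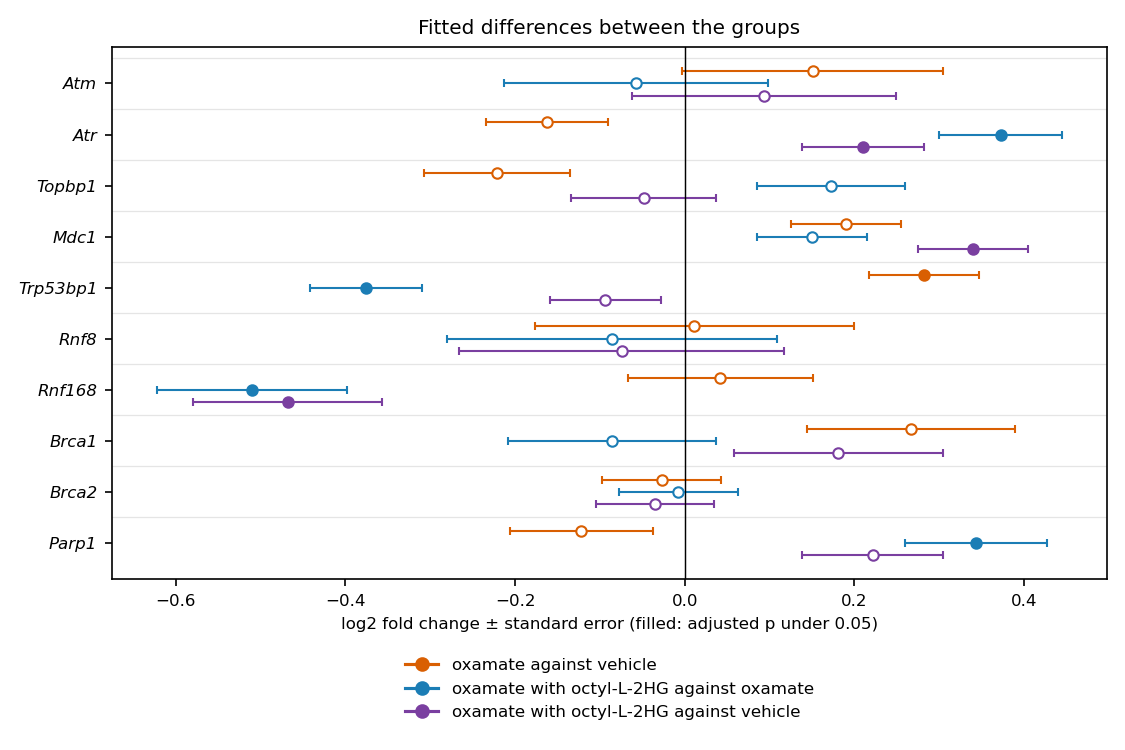
Log2 fold change (horizontal axis) with its standard error for the 10 genes in the 3 comparisons from edgeR's quasi-likelihood fit. Filled points passed the threshold: Trp53bp1 with oxamate, Atr, Trp53bp1, Rnf168 and Parp1 with octyl-L-2HG against oxamate, and Atr, Mdc1 and Rnf168 with both compounds against vehicle.

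Vehicle library 1 and oxamate library 4 shared their place in several of these genes. Within its own group, each had the lowest count of Rnf168, Brca1, Brca2 and Atr and the highest of Parp1. Over the 9 libraries, log2 CPM of Rnf168 and Parp1 ran against each other (Pearson r = -0.95), and their deviations from the group means did too (r = -0.93). These are descriptions over 9 libraries in 3 groups that share depth and normalization, with no test. The gene whose pattern over the 9 libraries was most like that of Trp53bp1, among the 10715 genes that averaged 100 normalized counts or more, was Igsf3 (r = 0.985). For Rnf168 it was Semp2l1 (r = 0.989), for Atr Prkaa1 (r = 0.987), for Parp1 Gm13889 (r = 0.979) and for Mdc1 Hectd4 (r = 0.977). The next gene was about as alike in each case, with an r of 0.985, 0.987, 0.984, 0.974 and 0.977 in the same order, and between 107 and 331 genes had an r over 0.9 with each. Atr and Parp1, which both rose with octyl-L-2HG, had r = 0.53 over the 9 libraries, and their deviations from the group means ran against each other (r = -0.77). Without oxamate library 4, 3 of the 10 genes were called with oxamate (Trp53bp1 and Brca1 raised, Parp1 lowered), 5 with octyl-L-2HG against oxamate (Mdc1 in addition) and 4 with both compounds against vehicle (Parp1 in addition). In that fit 9.28%, 17.9% and 25.1% of all genes were called. What sets libraries 1 and 4 apart was not tested.

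**Figure D4:**
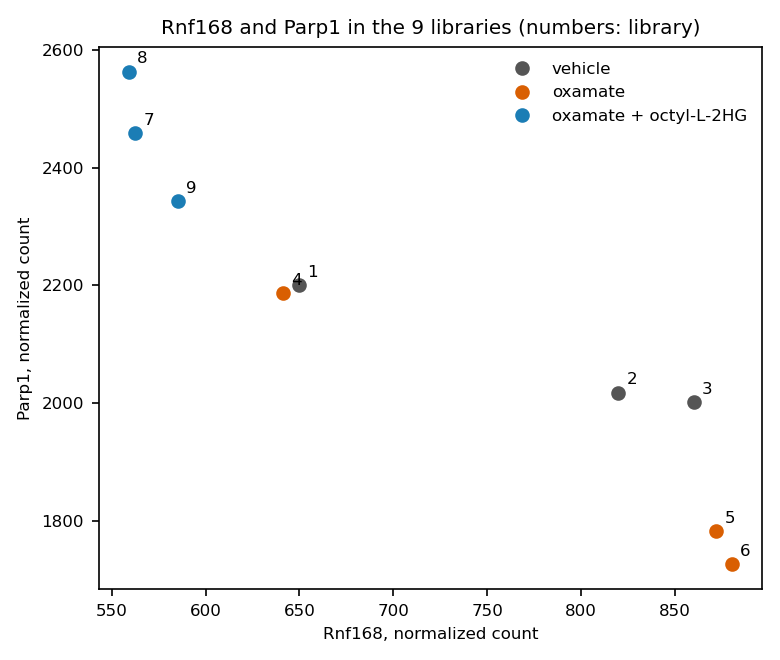
Normalized counts of Rnf168 (horizontal axis) and Parp1 (vertical axis) in the 9 libraries, numbered and coloured by group. Vehicle library 1 and oxamate library 4 lie together, between the 3 libraries with both compounds and the other vehicle and oxamate libraries.

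The transcripts of these 10 genes are long, from 3873 bases for Parp1 to 10724 for Brca2, at the 64.6th to 97.6th percentile of the 10715 genes that averaged 100 normalized counts or more. Fold changes rose with transcript length across genes. Among the 2673 of them with the longest transcripts, 4604 bases or more, the median log2 fold change with oxamate was 0.08 and 14.4% were raised. Among the 2675 with the shortest, up to 1724 bases, the median was -0.06 and 2.13% were raised. For both compounds against vehicle, 28.2% of the longest and 3.89% of the shortest were raised. When each library was given offsets from smooth fits of its counts on transcript length and GC content, oxamate changed 4 of the 10 genes, where 6.36% of all genes were called. Trp53bp1 was still raised, and Atr (-0.22, adjusted p = 0.00739), Topbp1 (-0.29, adjusted p = 0.0243) and Parp1 (-0.20, adjusted p = 0.0449, edgeR's quasi-likelihood test) were lowered. Between both compounds and oxamate, Atr, Parp1, Trp53bp1 and Rnf168 were called in the same directions as without the offsets, where 14.9% of all genes were called.

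**Figure D5:**
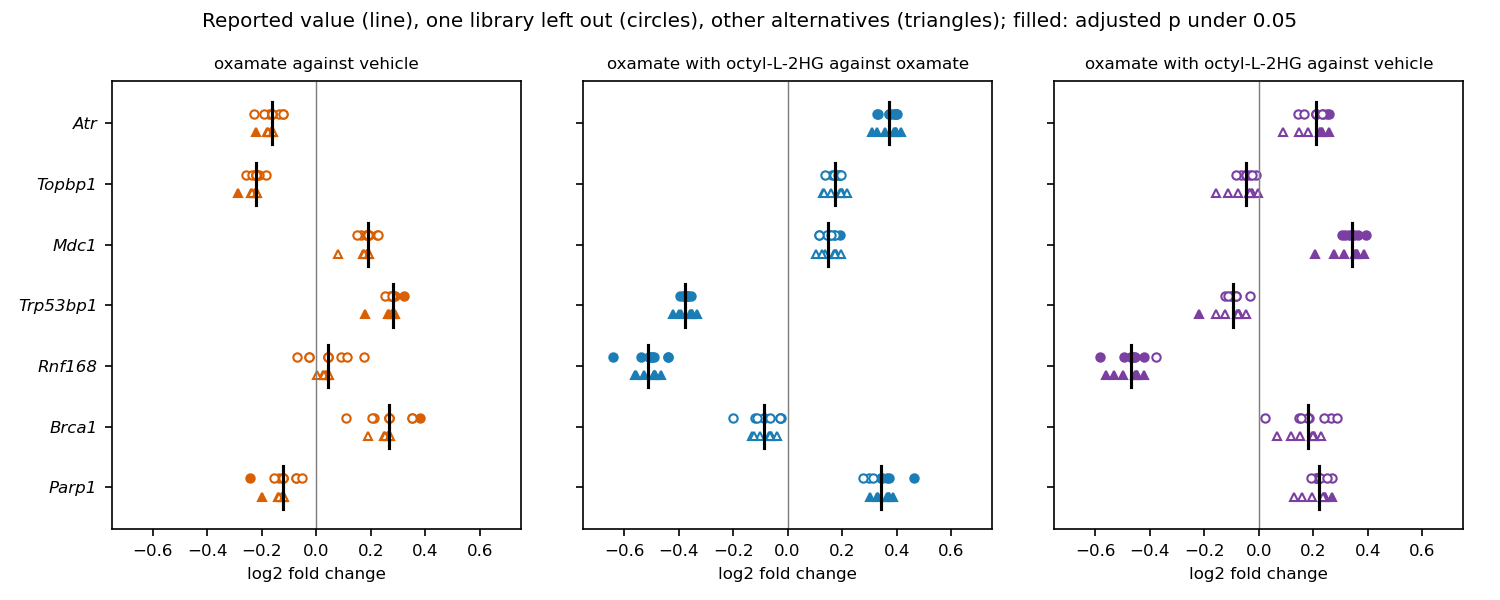
Log2 fold changes (horizontal axes) of 7 genes in the 3 comparisons as reported (black lines), with each library left out (circles) and under the other alternatives (triangles), filled where the adjusted p-value was under 0.05. The points for Trp53bp1, Rnf168 and Atr with octyl-L-2HG against oxamate are all filled, and the values for oxamate against vehicle depend more on single libraries.

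Other genes of these pathways were followed in 6 lists with 158 genes, of which 152 were tested. Oxamate raised 10 and lowered 2 of them, octyl-L-2HG with oxamate raised 6 and lowered 8, and both compounds against vehicle raised 16 and lowered 10. The balance for octyl-L-2HG against oxamate turned with the processing. It was 11 raised and 6 lowered with DESeq2, 15 and 6 with its size factors in edgeR and 20 and 6 without a filter. With length and GC offsets it was 14 and 14, and with total counts 2 and 10. The median log2 fold changes over the 152 genes were -0.01, 0.01 and 0.01. In the same order 12, 14 and 26 of 152 were called, while 5.19%, 11.2% and 18.0% of all genes were. These shares are the background for each list in turn. Without oxamate library 4 the counts were 19, 25 and 42, and 9.28%, 17.9% and 25.1% of all genes were called. Leaving out any other library gave 5 to 9, 5 to 15 and 15 to 27. Of 41 calls of named list genes, 20 were made in every alternative fit and none changed direction. The calls of Prkdc and Dynll1 with both compounds against vehicle, Sem1 in that comparison, Nudt16l1, Recql5 and Sesn2 with oxamate, and Gen1 with octyl-L-2HG held in fewer than 9 of 18.

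Among 25 other break sensors, kinases and their partners, oxamate raised 1, octyl-L-2HG with oxamate raised 1 and lowered 2, and both compounds against vehicle raised 3 and lowered 1. Without oxamate library 4 the calls went from 1, 3 and 4 to 3, 5 and 7, and without library 7 the last count was 2. For octyl-L-2HG against oxamate, DESeq2 called 3 raised and 2 lowered. EdgeR called 4 and 2 with DESeq2 size factors, no filter or filterByExpr, and 1 and 3 with total counts. Smg1, a kinase related to ATM and ATR that acts in nonsense-mediated decay, rose at each step, from a mean of 3824 ± 337 normalized counts (SD, n = 3) with vehicle through 5606 ± 167 after oxamate to 7154 ± 162 after both compounds. Log2 fold changes of Smg1 were 0.56 (SE 0.068, adjusted p = 3.09e-05), 0.33 (SE 0.068, adjusted p = 0.00298) and 0.88 for both compounds against vehicle (SE 0.068, adjusted p = 2.78e-08, edgeR's quasi-likelihood test). Prkdc, the kinase of end joining, fell with octyl-L-2HG, from 567.9 ± 90.1 to 399.1 ± 18.3 normalized counts (-0.53, adjusted p = 0.00511), and Chek1, the kinase that ATR activates, fell from 758.6 ± 146 to 567.6 ± 15.4 (-0.44, adjusted p = 0.00803, edgeR). Kat5, an acetyltransferase that activates ATM, and Rad9b, a subunit of the checkpoint clamp, were raised with both compounds against vehicle, by 0.32 and 0.33 on the log2 scale (adjusted p = 0.00364 and 0.0149, edgeR). H2ax, the histone that the kinases mark, had log2 differences of 0.16, -0.21 and -0.05 and was not called in any comparison.

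Of 29 tested genes of break ubiquitin signalling and 53BP1 control, oxamate raised 5 and lowered 1, octyl-L-2HG with oxamate raised 2 and lowered 3, and both compounds against vehicle raised 4 and lowered 3. The 6 calls with oxamate, set against 5.19% of all genes, turned on single libraries: there was 1 without vehicle library 1, 2 without vehicle library 2 or oxamate library 5 or 6, 3 without library 7, 8 or 9, and 8 without oxamate library 4. The fit of those 2 groups alone called 2. The 5 calls against oxamate, beside 11.2% of all genes, were 1 without library 8, 2 without library 5, 7 or 9, 9 without library 4 and 11 with length and GC offsets. The 7 against vehicle, beside 18.0%, were 4 without library 7, 8 or 9 and 12 without library 4 or in the fit of 2 groups. Abraxas1, the scaffold of the BRCA1-A complex, went the way of Trp53bp1. Its mean was 177.1 ± 9.9 normalized counts in vehicle libraries, 285.1 ± 50.6 with oxamate and 212.3 ± 5.5 with both compounds, a rise of 0.69 with oxamate (adjusted p = 0.000856) and a fall of -0.45 with octyl-L-2HG (adjusted p = 0.0145, edgeR's quasi-likelihood test). Oxamate also raised Rnf111 (0.35, adjusted p = 0.0133) and Herc2 (0.30, adjusted p = 0.0173), both ubiquitin ligases, and lowered Nudt16l1, which codes for the 53BP1 inhibitor TIRR (-0.62, adjusted p = 0.0459, edgeR), with overlapping libraries. Octyl-L-2HG with oxamate lowered Ube2v2, a partner of the ubiquitin-conjugating enzyme UBC13 (-0.46, adjusted p = 0.00239), and Rnf4, a SUMO-targeted ligase (-0.25, adjusted p = 0.0104, edgeR). It raised Usp16, a deubiquitinase of histone H2A, by 0.27 (adjusted p = 0.0286) and Trip12, a ligase that limits RNF168, by 0.21 (adjusted p = 0.0372, edgeR). Against vehicle, both compounds raised Rnf40, a ligase of histone H2B, by 0.37 (adjusted p = 0.000879), and lowered Dynll1, a 53BP1 partner (-0.20, adjusted p = 0.0403, edgeR).

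Of 37 genes of homologous recombination, oxamate raised 2 and lowered 1, octyl-L-2HG with oxamate raised 2 and lowered 1, and both compounds against vehicle raised 4 and lowered 3, where 5.19%, 11.2% and 18.0% of all genes were called. Without oxamate library 4 these 3, 3 and 7 calls became 6, 6 and 12. The 3 calls of octyl-L-2HG against oxamate were 0 without library 8, 1 without library 5, 7 or 9, and 9 with no filter on low counts, 8 raised and 1 lowered. DESeq2 called 4 raised and 0 lowered, edgeR with DESeq2 size factors or filterByExpr 5 and 0, and edgeR with total counts 1 and 1. The 7 against vehicle were 4 without library 1, 7 or 8 and 12 in the fit of 2 groups. Gen1, a resolvase of Holliday junctions, rose with oxamate from 265.5 ± 36.9 to 404.8 ± 52.9 normalized counts (0.61, adjusted p = 0.00134) and fell with octyl-L-2HG to 323.2 ± 17.9 (-0.35, adjusted p = 0.0404, edgeR's quasi-likelihood test). Xrcc2, which acts in strand exchange, fell with oxamate from 175.7 ± 14.4 to 110.3 ± 20.6 (-0.66, adjusted p = 0.00369) and was 100.9 ± 9.4 with both compounds (-0.81 against vehicle, adjusted p = 0.000185, edgeR). The helicase gene Wrn and Rmi1, a subunit of the BLM complex, rose with octyl-L-2HG over oxamate by 0.30 (adjusted p = 0.00595) and 0.25 (adjusted p = 0.0352) and stayed above vehicle, by 0.34 and 0.36 (adjusted p = 0.00119 and 0.00197, edgeR). Recql5, a helicase gene, rose with oxamate by 0.26 (adjusted p = 0.0409), and Sem1, a BRCA2 partner, fell with both compounds against vehicle (-0.20, adjusted p = 0.0484, edgeR).

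Of 12 tested end-joining genes, oxamate raised 1, Aplf (0.74, adjusted p = 0.0163, edgeR), which averaged 40.3 normalized counts and was named after its value was seen. DESeq2 called 0 of the 12 in that comparison, and edgeR called 0 at an adjusted p under 0.01, with a mean of at least 100 normalized counts required, and without vehicle library 2, vehicle library 3 or oxamate library 5. By edgeR's test 0 were called in either comparison with octyl-L-2HG, and DESeq2 called 0. In each, 3 had an unadjusted p-value under 0.05, where 23.6% of all genes did against oxamate and 30.0% against vehicle. Under some alternatives edgeR called 1: against oxamate with DESeq2 size factors, no filter, filterByExpr or offsets and without library 4 or 6, and against vehicle with total counts, no filter, the fit of 2 groups or offsets and without library 4. Of 23 tested genes of poly(ADP-ribose) and single-strand break repair, octyl-L-2HG with oxamate raised 1 and lowered 2, and both compounds against vehicle raised 1 and lowered 2. The 3 calls against oxamate were 1 without library 5, 6, 7 or 8, and the 3 against vehicle were 1 without library 7 and 5 without library 4. For oxamate against vehicle edgeR called 0 of them, with 2 at an unadjusted p-value under 0.05, and DESeq2 called 0, while edgeR with offsets called 1. Fen1, the flap endonuclease, fell from 237.8 ± 14.8 normalized counts with oxamate to 159.5 ± 8.8 with both compounds (-0.60, adjusted p = 0.000527) and was -0.76 against vehicle (adjusted p = 1.42e-05, edgeR's quasi-likelihood test). Macrod2, which removes ADP-ribose, rose by 0.26 with octyl-L-2HG (adjusted p = 0.0303). Against vehicle, both compounds raised Oard1, another ADP-ribose hydrolase, by 0.33 (adjusted p = 0.0101) and lowered Ogg1, the glycosylase of oxidized guanine (-0.35, adjusted p = 0.0103, edgeR). Parp2, a second polymerase of this kind, was not called, with log2 differences of -0.14, 0.04 and -0.09.

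Of 26 tested genes on a list of p53 and its known targets, oxamate raised 1, and both compounds against vehicle raised 4 and lowered 1. The call with oxamate held without library 4 or library 6 and was lost without any 1 of the other 7, and the 5 calls against vehicle were 3 without vehicle library 1 or 2. By edgeR's test 0 were called with octyl-L-2HG against oxamate, where 4 had an unadjusted p-value under 0.05 and DESeq2 called 0. Without oxamate library 4 edgeR called 1. Sesn2, a stress sensor that restrains growth signalling, rose with oxamate from 179.6 ± 5.3 to 239.4 ± 35.2 normalized counts (0.42, adjusted p = 0.0437) and was 269.8 ± 33.7 with both compounds (0.57 against vehicle, adjusted p = 0.00171, edgeR's quasi-likelihood test). Zmat3 rose by 0.36 with both compounds against vehicle (adjusted p = 0.00388, edgeR). Cdkn1a, the cell cycle inhibitor most often read as a p53 target, fell with both compounds against vehicle (-0.83, adjusted p = 0.00217, edgeR) at a low level, with 44.1 normalized counts on average. It differed by -0.58 with oxamate against vehicle (adjusted p = 0.0535) and by -0.25 with octyl-L-2HG against oxamate (adjusted p = 0.495, edgeR). It falls outside the rule for named genes and was named after its value was seen. Trp53 averaged 60.1 normalized counts and was not called in any comparison.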

How the data were processed

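RNA of 9 RS libraries was prepared with polyA selection and a stranded kit. The sequencing instrument differs between labels and methods. After trimming, the authors aligned reads with TopHat2 2.1.1, counted reads per gene with HTSeq 2.01 and deposited these raw counts. The submitters' processing notes name GRCm39 and, without a role, WBcel235. The authors also deposited a normalized signal, the count divided by 1 DESeq2 size factor per library, called normalized count here.

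Groups came from the treatment label. The test, applied to genes with 10 or more counts summed over all libraries, was that of edgeR 4.0.16 (R 4.3.3): TMM scaling, 1 robust quasi-likelihood fit with group as the only term, and a threshold of 0.05 on the Benjamini-Hochberg adjusted p-value. On simulated data for 24583 genes, 100 of 100 genes changed 2-fold and 64 of 100 changed 1.3-fold were called for oxamate against vehicle, and 10 of 24383 unchanged genes. The simulated libraries were drawn independently with the fitted spread, with no displaced libraries such as 1 and 4. Only genes with a mean of 100 counts or more were changed. These rates check the code and need not hold for the real libraries or for genes with few counts. Alternatives were DESeq2 1.42.0, its size factors, total counts, other filters, a threshold of 0.01, fits of 2 groups, length and GC offsets, and each library left out. Length, GC content and exon overlaps came from a GRCm38 annotation that matched 99.6% of the genes tested, a build other than the authors'. Levels per length used the longest transcript there.

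The 10 genes and the lists were chosen with earlier results of these data known. From each list, in each comparison, up to 3 called genes per direction with the largest fold change and a mean of 100 normalized counts or more were named. Other genes of the lists with values (H2ax, Parp2, Trp53, Cdkn1a, Aplf) and Tubgcp4, 1700065D16Rik, Prm1, Tnp1 and the Sertoli genes were named outside that rule. One result under this rule is not reported here.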

Additional observations from a re-analysis of the deposited data

How the results depend on the processing

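Of 534 values of the 10 genes under alternatives, 481 kept direction and side of the threshold, 17 lost and 12 gained the call, and 24 changed sign. With oxamate against vehicle, 0 of the 10 genes were called at a threshold of 0.01 and 4 with length and GC offsets. Leaving out each library gave 0 to 3 for that comparison, 3 to 5 for octyl-L-2HG against oxamate, 2 to 4 for both compounds against vehicle and 4 to 6 for any difference. The count was 0 without vehicle library 2 or oxamate library 5 and 3 without oxamate library 4.

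No called value changed sign. With offsets, Atm against vehicle with both compounds was -0.0282 and Rnf8 with oxamate -0.0753, and with total counts Rnf8 with oxamate was -0.0081. Brca2 with octyl-L-2HG against oxamate was 0.0182 with DESeq2, 0.018 with its size factors, 0.0375 without a filter, 0.0114 with filterByExpr and 0.0141 in the fit of 2 groups, and against vehicle 0.0108 without a filter. With a library left out, Atm ranged from -0.1542 to 0.0034 (against oxamate) and from -0.0131 to 0.2541 (against vehicle), Brca2 from -0.0621 to 0.0082 (oxamate against vehicle), -0.0401 to 0.0153 and -0.0693 to 0.001, and, with oxamate against vehicle, Rnf8 from -0.0724 to 0.1423 and Rnf168 from -0.0715 to 0.1748. The cause was not tested.

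Total counts as the scaling moved the median log2 fold change of all genes to -0.08 with octyl-L-2HG against oxamate and -0.11 against vehicle, and the genes raised and lowered with octyl-L-2HG from 798 and 2025 to 421 and 2516. Over the 6 lists, calls ranged under alternatives other than left-out libraries from 4 to 15 (12 as reported), 6 to 28 (14) and 14 to 42 (26). Over all genes, calls ranged from 659 to 2288, 1396 to 4415 and 2970 to 6194 with a library left out.

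No paired analysis was made because the labels do not state which libraries of different groups belong together: libraries are numbered 1 to 9 without repeats. With 3 libraries a group, Atm and Rnf8 had too few counts for small changes to be seen.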
